A study of Homo sapiens with 6 samples.

Results

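Accessible chromatin was examined at 6 genes of the neuroendocrine and tuft cell lineages, NEUROD1, INSM1, CHGA, SYP, POU2F3 and REST, out of 20037 protein-coding genes in the RefSeq table of GRCh38.p14. For each gene, every peak overlapping its span or the 20 kb on either side was taken, without regard to its height. These windows held 230 of the 879389 peaks deposited on the chromosomes of 6 libraries, and merging overlapping peaks gave 87 regions out of 507440. The libraries come from an assay for transposase-accessible chromatin (ATAC-seq), in which a transposase inserts sequencing adapters into open DNA. All were made from NCI-H1703, an established human lung squamous cell carcinoma line, and per the labels 3 libraries (titled ASO) are of cells with silenced DLGAP1-AS2, a long non-coding RNA, and 3 (titled NC) of control cells. The titles number the libraries, but nothing states that they came from separate cultures, so p-values measure only the spread between these libraries, which may be technical. All 6 libraries share the single cell line, the lists carry no measure of how far DLGAP1-AS2 was silenced, and no treatment time is given in the sources used here.

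Neuroendocrine cells of the airway store peptides in dense-core granules, and neuroendocrine lung cancers reuse their transcription programme. NEUROD1, a basic helix-loop-helix factor, and INSM1, a zinc-finger factor, are regulators of that programme, CHGA encodes the granule protein chromogranin A, and SYP encodes the vesicle membrane protein synaptophysin. POU2F3 is the POU-domain factor required for tuft (chemosensory) cells, and REST is the zinc-finger repressor that keeps neuronal genes, granule genes among them, silent in non-neuronal cells. The labelled cell type was compared with marker genes on the same lists. Of 8 squamous markers, only SOX2 had a peak within 1 kb of a start or end in all 6 libraries, KRT5 and KRT6A had none in any library, and TP63, KRT14, DSG3, PKP1 and SERPINB5 had a peak of height 2 to 5 in a single library each. Over all protein-coding genes, 58.9% had such a peak in all 6 libraries and 19.1% in none. Of 5 mesenchymal markers, VIM, CDH2, FN1 and ZEB1 had such a peak in all 6, and COL1A1 in none. Of 4 general epithelial markers none had it in all 6, but KRT18 had it in 4 libraries, EPCAM in 3, and CDH1 and KRT8 in 2 each. Of 5 alveolar markers NKX2-1, NAPSA and SFTPC had it in all 6, and of 4 leukocyte markers CD68 did, while the defining leukocyte gene PTPRC had none in any library. Most of the squamous markers listed were thus without a shared open start in these cells.

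The lists differ in length and in the heights they hold. They held 91346 (control replicate 2) to 170882 (control replicate 1) peaks on the chromosomes, and the total read number is unknown. The shortest list, control replicate 2, had 2.46% of its peaks below a height of 4, against 48.1% to 52.1% in the other libraries. Its median height was 8, against 3 or 4 in the others, so peak counts are not alike between lists. The background coverage implied by the deposited heights and folds ran from 0.237 in silenced replicate 3 to 0.464 in control replicate 2. The height of a peak is the authors' pileup, the number of fragments stacked at it, and is not scaled between libraries. The fold enrichment is the authors' ratio, read here as (height + 1) / (local background + 1). Both describe peaks within a list, and silenced replicate 3 had the lowest height at 12 of the 16 member regions called in all 6 libraries, but the lowest fold enrichment at 4.

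The start sites of NEUROD1 and SYP lay under a peak in all 6 libraries, the first start of REST under a region merged over the libraries, and that of CHGA under none, so the 250 bases before each start are shown, from RefSeq (GRCh38.p14), written 5′ to 3′ on the gene's own strand. The table gave promoters for 4 of the 6 members, with 2 start sites for REST, and not for INSM1 and POU2F3. Capitals mark matches to 8 short motifs, searched on both strands and independently of each other, so that matches could overlap. The 2 arms of RE1, the element REST binds, were searched separately, the left arm as TTCAGCACC and the right arm as GGACAGC. For the helix-loop-helix factors an E-box was searched as CAGATG, and for the POU factors the octamer was searched as ATGCAAAT. The AP-1 element was searched as TGACTCA, and the motif of TEAD factors, the DNA-binding partners of the co-activator YAP, as GGAATG. The cyclic AMP response element, TGACGTCA, was added after the sequences had been read, and so was the TATA box, written as TATATAA.
NEUROD1, minus strand, chr2:181680518-181680767: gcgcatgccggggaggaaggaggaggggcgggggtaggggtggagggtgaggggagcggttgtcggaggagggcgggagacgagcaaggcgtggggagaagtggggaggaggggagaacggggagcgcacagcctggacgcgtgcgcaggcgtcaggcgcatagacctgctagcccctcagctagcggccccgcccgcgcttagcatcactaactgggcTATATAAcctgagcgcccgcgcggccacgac
SYP, minus strand, chrX:49200194-49200443: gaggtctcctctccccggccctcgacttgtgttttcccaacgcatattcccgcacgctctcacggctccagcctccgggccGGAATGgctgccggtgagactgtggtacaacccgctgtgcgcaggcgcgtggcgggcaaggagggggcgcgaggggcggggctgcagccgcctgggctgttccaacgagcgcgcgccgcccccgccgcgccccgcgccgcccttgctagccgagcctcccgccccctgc
CHGA, plus strand, chr14:92922900-92923149: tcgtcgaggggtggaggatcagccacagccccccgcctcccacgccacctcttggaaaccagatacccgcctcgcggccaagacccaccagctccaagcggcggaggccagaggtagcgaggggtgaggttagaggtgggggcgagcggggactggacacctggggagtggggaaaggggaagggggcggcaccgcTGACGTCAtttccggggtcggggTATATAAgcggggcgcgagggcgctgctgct
REST, first start, plus strand, chr4:56907650-56907899: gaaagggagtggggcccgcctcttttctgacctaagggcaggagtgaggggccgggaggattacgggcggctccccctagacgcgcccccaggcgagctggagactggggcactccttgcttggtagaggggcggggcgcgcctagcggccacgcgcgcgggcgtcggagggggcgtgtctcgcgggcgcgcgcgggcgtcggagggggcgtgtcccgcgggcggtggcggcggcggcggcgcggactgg
REST, second start, plus strand, chr4:56908660-56908909: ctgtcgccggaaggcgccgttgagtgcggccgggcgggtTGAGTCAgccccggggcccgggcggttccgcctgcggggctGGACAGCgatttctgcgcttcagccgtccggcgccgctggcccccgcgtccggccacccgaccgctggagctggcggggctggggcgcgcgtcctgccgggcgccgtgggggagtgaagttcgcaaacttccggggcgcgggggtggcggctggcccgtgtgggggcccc

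All 5 promoters held more CG than the median promoter. Counted over the 300 bases of the table (250 before and 50 after the start), NEUROD1 held 31 CG dinucleotides, SYP 35, CHGA 24, and the REST starts 44 and 46, against a median of 14 over 35116 promoters. The CHGA promoter, which no peak overlapped, thus had the fewest of the 5. It carried a cyclic AMP response element 54 bases and a TATA box 31 bases before its start, and NEUROD1 also carried a TATA box 31 bases before its start. The cyclic AMP element is present in 1.85% and this TATA box in 2.57% of all promoters of that length. SYP held a TEAD match 169 bases before its start, and the first REST start held a TEAD match 24 bases after it, outside the bases shown (14.0% of all promoters hold this motif). The second REST start held an RE1 right arm 170 bases before it (6.03% of all promoters) and an AP-1 match 211 bases before it, written TGAGTCA on this strand (4.95%). No member promoter held the RE1 left arm (0.376% of all promoters), the E-box (14.7%) or the octamer (1.77%). A match is a run of letters and not a measured binding site.

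Among the neuroendocrine regulators, the NEUROD1 start was open in every library at a modest height. The region over its start (GRCh38, chr2:181680353-181681055, 703 bp, midpoint 187 bp upstream of the start) reached a height of 6, 10 and 7 in silenced replicates 1, 2 and 3, in that order, and of 11, 13 and 14 in control replicates 1, 2 and 3. Every control library was thus higher than every silenced library. The fold enrichment gave the same order of groups, at 4.49, 7.24 and 5.71 in silenced and 7.41, 8.14 and 8.43 in control libraries. To compare lists of different depth, fold enrichment was ranked within each library over the 37284 regions called in all 6 libraries, and the ranks were turned into normal scores, where 0 is the median shared region. The score at the NEUROD1 start was −0.50 ± 0.49 in the silenced and −0.05 ± 0.11 in the control group (SD, n = 3 each). The difference (silenced minus control) was −0.45 ± 0.34 (SE), and it did not pass the test (limma over all shared regions, Benjamini-Hochberg adjusted p = 0.965, unadjusted p = 0.201). Leaving out silenced replicate 1, the library with the lowest score, brought the difference to −0.16. Groups that did not overlap in this direction are common on these lists: 4.78% of all shared regions had all 3 silenced scores below all 3 control scores, and 5.39% the reverse.

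The rest of the NEUROD1 window was sparse. It held 4 regions in all, and the 14 peaks over the 6 libraries gave 0.447 peaks per 10 kb, against a median of 0.801 over the windows of all protein-coding genes. The other region called in every library (chr2:181656409-181657253) lay at the start of the neighbouring gene CERKL, 23686 bp downstream of the NEUROD1 start, with heights of 15, 18 and 10 in silenced and 23, 13 and 14 in control libraries, which overlap. The remaining regions, a peak of height 3 near the end of the gene and a peak of height 3 upstream, were each called in a single library. The start was therefore the only region on NEUROD1 itself that the libraries shared.

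INSM1, a gene of 2846 bp that RefSeq places at chr20:20368104-20370949, had only weak peaks on its own span. The region at chr20:20369392-20369824, inside the gene, was called in 5 libraries, with heights of 6, 5 and 4 in silenced replicates 1, 2 and 3 and of 8 and 6 in control replicates 2 and 3, and no peak in control replicate 1. A second region in the gene (chr20:20370002-20370266) was called only in silenced replicate 3, at height 5, and control replicate 2, at height 9. The strong region of this window lay outside the gene. At chr20:20360359-20360892 it crossed the higher-coordinate end of the CFAP61 span (20360698), 7479 bp from the nearer end of INSM1. Heights there were 19, 15 and 13 in silenced and 16, 22 and 17 in control libraries. The groups overlapped, and the score was 0.39 ± 0.38 in the silenced and 0.29 ± 0.07 in the control group (SD, n = 3 each), a difference of 0.10 ± 0.26 (SE, limma adjusted p = 0.980). Of the 12 regions in this window, 8 were called in a single library, at heights of at most 6.

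The granule and vesicle genes differed from each other. No library had a peak within 1 kb of the CHGA start (chr14:92923150). The regions on either side of it lay 2560 bp upstream (chr14:92920391-92920790), called at heights 7 and 4 in silenced replicates 2 and 3 and at 9 in control replicate 1, and 1451 bp downstream (chr14:92924254-92924948), called at height 8 in silenced replicate 2 and at 7, 10 and 6 in the control libraries. Both were called in libraries of each group, and neither in all libraries of both. A further region inside the gene, 2378 bp downstream (chr14:92925398-92925659), was called at height 7 in silenced replicate 1 and at 5 in control replicate 3. The tallest region of the CHGA window belonged to other genes by position. At chr14:92951745-92952450 it overlapped ITPK1, an inositol phosphate kinase gene, and an end of the long non-coding RNA gene LOC124903366. It lay 28947 bp from the CHGA start, with heights of 21, 27 and 11 in silenced and 18, 32 and 14 in control libraries. Its scores overlapped between groups, with a difference of 0.13 ± 0.27 (SE, limma adjusted p = 0.976).

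The CHGA window also held the only member region called in all libraries of a single group. The region at chr14:92938217-92938547, in ITPK1 and 15232 bp downstream of the CHGA start, had heights of 9, 7 and 9 in the control libraries and no peak in any silenced library. Over all 507440 merged regions, 0.2% were called in all 3 control libraries and no silenced library and 0.13% the reverse, and the members' counts were 1 and 0 of 87. The FDR, the authors' adjusted p-value, was 1.52e-05, 0.00381 and 1.22e-05 in control replicates 1, 2 and 3, so the region is not called in all 3 when an FDR of at most 1e-05 is required. A neighbouring region (chr14:92937578-92937854) was called at heights 8 and 5 in silenced replicates 1 and 3 and at 6 in control replicate 2. Presence in 3 libraries against 0 was not tested, and with 3 against 3 an exact test cannot go below 0.1. Leaving out single libraries gave 1 to 3 control-only and 0 to 2 silenced-only regions in the 6 windows, with 3 control-only and 2 silenced-only regions without silenced replicate 2.

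SYP had the tallest accessible region of all 6 windows, inside the gene and not at its start. At chrX:49190698-49191585, 9052 bp downstream of the start, heights were 65, 89 and 47 in silenced and 71, 81 and 63 in control libraries. All 6 libraries were high and the groups overlapped. The score was 0.98 ± 0.23 in the silenced and 0.69 ± 0.13 in the control group (SD, n = 3 each), with a difference of 0.29 ± 0.21 (SE, limma adjusted p = 0.965). The region over the SYP start, shared with the antisense RNA gene SYP-AS1 (chrX:49199848-49200503), was lower, at 11, 17 and 7 in silenced and 18, 18 and 13 in control libraries. Its scores overlapped as well, with a difference of −0.14 ± 0.28 (SE, limma adjusted p = 0.977). In every library the body region was more than 3 times as tall as the start region.

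The SYP window is gene-dense, and its other shared regions lay at neighbours. The start of PRICKLE3 (chrX:49184210-49185095) had heights of 24, 37 and 20 in silenced and 42, 29 and 26 in control libraries, and a region just inside the start of PLP2 (chrX:49172336-49172781) had 11, 12 and 6 in silenced and 13, 13 and 7 in control libraries. The 5 regions upstream of the SYP start, all in CACNA1F, were each called in a single library at a height of at most 4. With 44 peaks over the 6 libraries the window held 1.40 peaks per 10 kb, more than 92.5% of protein-coding gene windows.

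POU2F3, the tuft factor, lay in the window with the most regions, 29, of which 18 overlapped its span of 83308 bp and 4 of those were called in every library. The region at the lower-coordinate end of the span (chr11:120236554-120237296) had heights of 18, 18 and 9 in silenced and 14, 15 and 15 in control libraries. The heights overlapped between the groups. So did the fold enrichments, at 7.25, 7.31 and 5.68 in silenced and 5.68, 4.94 and 6.30 in control libraries. The rank scores within each library did not overlap, at −0.12, −0.22 and −0.20 in silenced and −0.69, −1.04 and −0.51 in control libraries. The difference was 0.57 ± 0.34 (SE) and did not pass the test (limma adjusted p = 0.963, unadjusted p = 0.115). It lay between 0.42 and 0.69 when each library was left out in turn. A second region lay just outside that end (chr11:120235053-120235366, midpoint 1429 bp away), with heights of 19, 13 and 6 in silenced and 14, 19 and 18 in control libraries.

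The tallest region of POU2F3 was inside the gene, 66651 bp from the lower-coordinate end (chr11:120303007-120303571). Heights were 28, 23 and 10 in silenced and 21, 31 and 25 in control libraries, so that silenced replicate 3 stood lowest and the other 5 libraries overlapped. The score differed by −0.13 ± 0.27 (SE, limma adjusted p = 0.977). Another region, 63515 bp from that end (chr11:120299998-120300309), had heights of 10, 10 and 12 in silenced and 15, 20 and 9 in control libraries, and a weak region at 35768 bp (chr11:120272254-120272559), which also overlaps the RNA gene LOC105369531, had heights of 4 to 8. A region inside the antisense gene POU2F3-AS1 (chr11:120258728-120259227) was called in 5 libraries, at 3, 6 and 6 in silenced and at 8 and 7 in control replicates 1 and 2. The other shared regions of the window lay at an end of TLCD5 (chr11:120324791-120325831), with heights of 13 to 27, and at the start of ARHGEF12 (chr11:120335798-120337346), with heights of 11 to 22. The largest score difference among the members was at the latter, 0.64 ± 0.39 (SE, limma adjusted p = 0.963), and the scores overlapped.

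REST, the repressor, had the weakest shared start of the 4 members with an open start or end. The region over its first start (chr4:56907453-56908695, 1243 bp) had heights of 7, 9 and 3 in silenced and 10, 13 and 6 in control libraries. It was called as a single peak in silenced replicate 1 and control replicate 1, as 2 peaks in silenced replicate 2 and control replicates 2 and 3, and as 3 peaks of height 3 in silenced replicate 3. The start base itself lay between peaks in silenced replicates 2 and 3 and under a peak in the other libraries. Peaks overlapping the first promoter shown above were present in all 6 libraries, and peaks overlapping the second in silenced replicates 1 and 3. The latter overlaps were peak edges, from 56908891 in silenced replicate 1 and up to 56908695 in silenced replicate 3. Peaks of control replicates 1 and 3 ended just before that promoter (which begins at 56908660), at 56908646 and 56908656. Control replicate 1 also had a peak past it, from 56909156. The score was −1.35 ± 0.53 in the silenced and −1.08 ± 0.48 in the control group (SD, n = 3 each), low in both groups, and the difference of −0.26 ± 0.45 (SE) did not pass the test (limma adjusted p = 0.974). Without silenced replicate 3 it was 0.00447. The other 13 regions of the window had a highest value of 6 in any library, and 8 of the 14 regions were called in a single library.

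**Figure D1:**
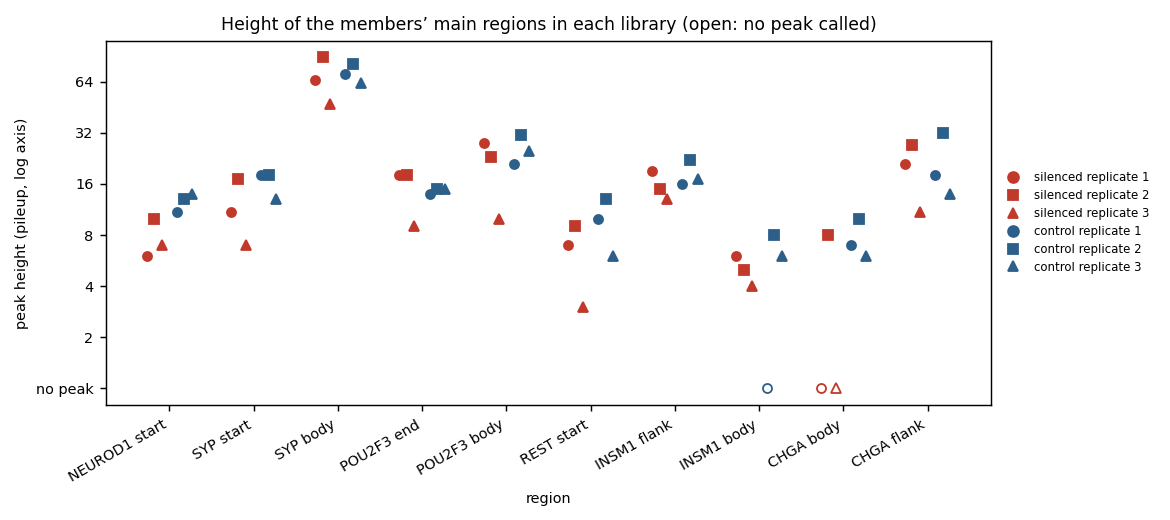
Height of the main regions of the 6 genes in each library, as fragment pileup on a log axis. Filled symbols are called peaks, open symbols libraries with no peak, red the 3 silenced and blue the 3 control libraries. The SYP body region stands highest (47 to 89), the 3 silenced libraries lie below the 3 control libraries at the NEUROD1 start, and the REST start lies between 3 and 13.

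**Figure D2:**
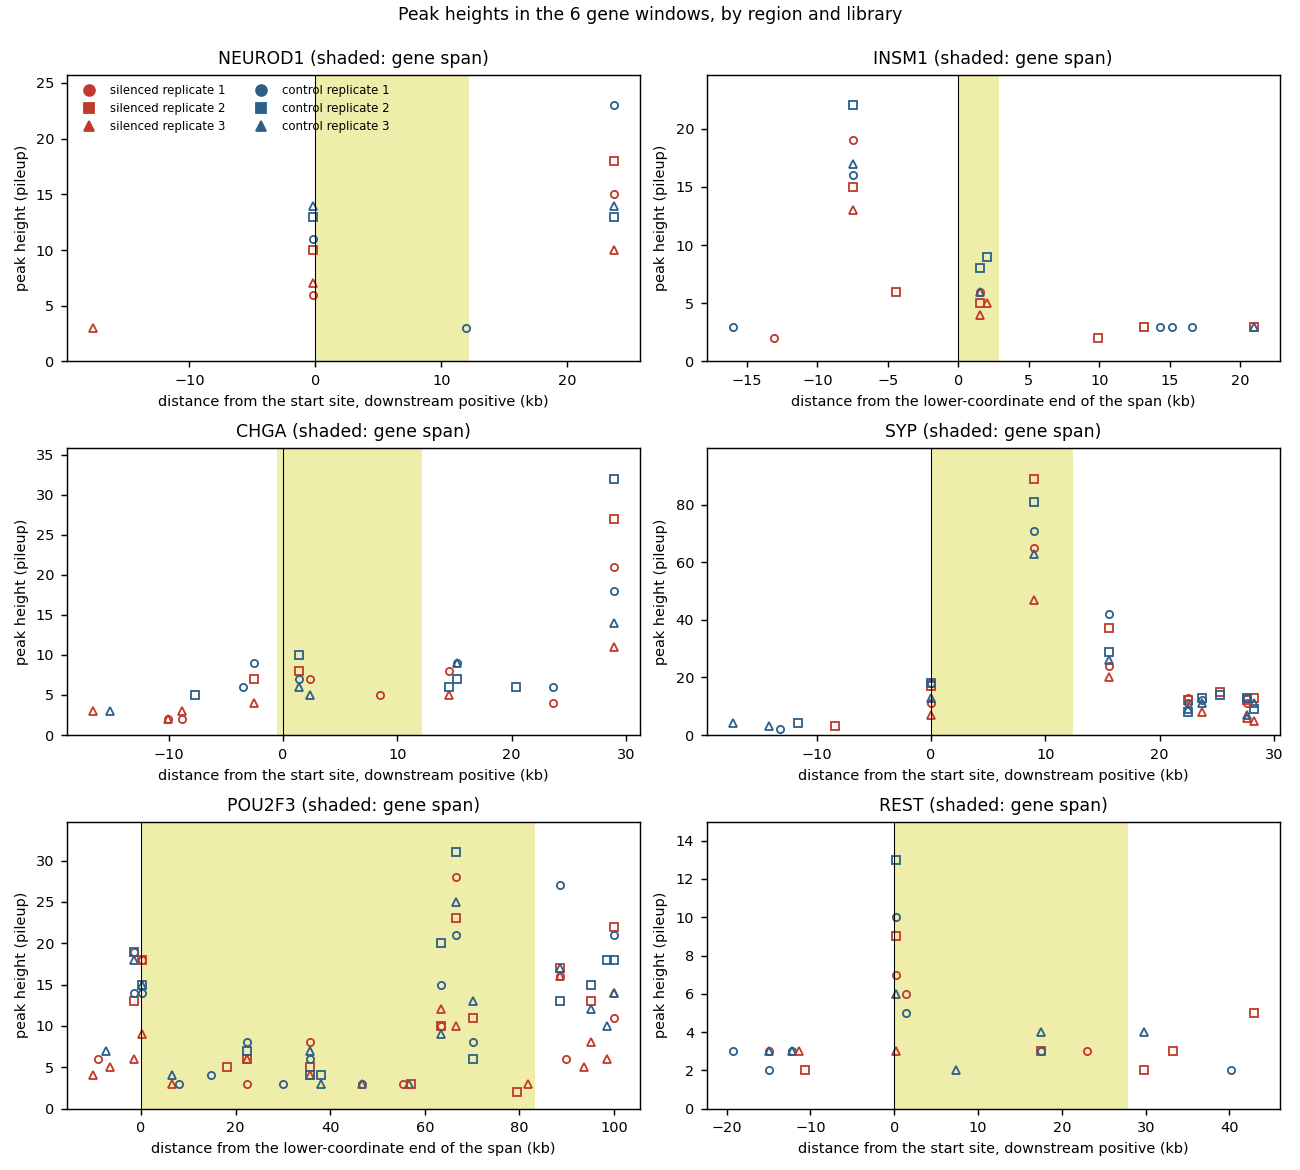
Every region of the 6 windows by its distance from the gene's start site, or from the lower-coordinate end of the span for INSM1 and POU2F3, in kb, against the peak height in each library that called it. The gene span is shaded, and the tallest regions of the NEUROD1, INSM1 and CHGA windows lie outside it while those of SYP, POU2F3 and REST lie inside it.

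The number of peaks per window was compared to ask whether the gene neighbourhoods gained or lost accessible regions. NEUROD1 had 2, 2 and 3 peaks in silenced and 3, 2 and 2 in control libraries. INSM1 had 3, 6 and 3 against 5, 3 and 3, and CHGA had 7, 3 and 6 against 6, 6 and 5. POU2F3 had 13, 14 and 16 peaks in silenced libraries and 14 in each control library. REST had 4, 7 and 4 against 7, 2 and 7, the 2 in control replicate 2, whose list holds few low peaks. All 5 genes had group means within 0.333 peaks of each other (two-sided exact permutation test, p = 1 for each). On the lists as deposited SYP had the largest difference, with 5, 8 and 6 peaks in silenced and 7, 9 and 9 in control libraries. Its means were 6.33 ± 1.53 and 8.33 ± 1.15 (SD, n = 3), with an exact permutation p of 0.2. The p was 0.25 by an exact sign-flip test when libraries of the same number are paired. The SYP difference turned to 0.333 more peaks in silenced libraries when only peaks with an FDR of at most 1e-05 were counted. The order of the genes changed when every list was cut to the length of the shortest, keeping the smallest p-values. The differences (silenced minus control) were then −2 at CHGA, −1.67 at POU2F3 and −1.33 at SYP (exact permutation p = 0.3, 0.3 and 0.5). With 3 libraries against 3 the exact test cannot go below 0.1. The groups' counts overlapped at all 6 members, and over all protein-coding gene windows 1.56% had every silenced count above every control count and 1.67% the reverse.

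**Figure D3:**
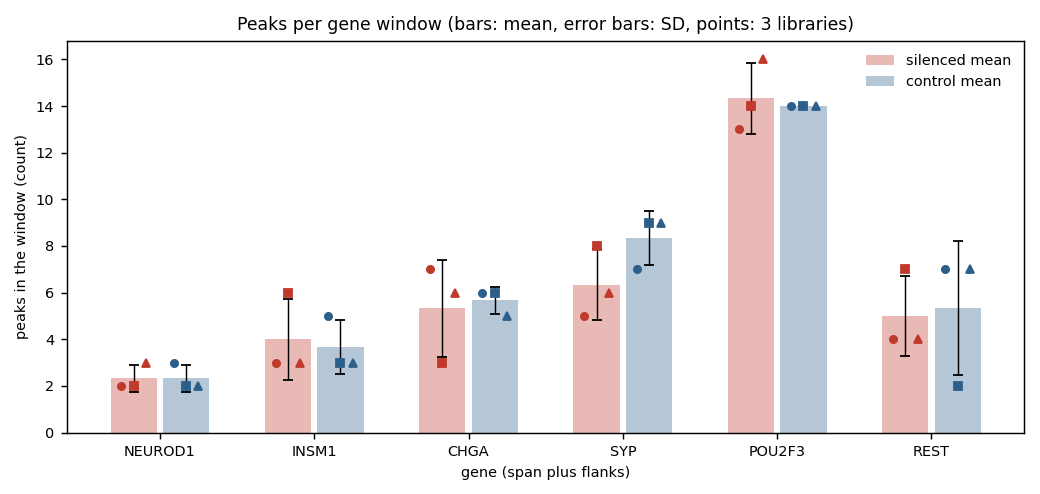
Number of peaks in the window of each gene (span plus 20 kb on either side). Bars are group means, error bars the SD over 3 libraries and points the libraries, and in each of the 6 windows the counts of the groups overlap.

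Of the 87 member regions, 16 (18.4%) were called in all 6 libraries and 44 (50.6%) in a single library, against 7.35% and 74.1% of all merged regions. All merged regions include those outside gene windows, and the share over gene windows alone was not computed. Several of the 16 lay at neighbouring genes. Of these 16 shared regions, 10 had a higher and 6 a lower mean score in silenced libraries, with a median difference of 0.07 and a range from −0.45 to 0.64. None passed the test, whose smallest adjusted p among them was 0.963 and smallest unadjusted p 0.115. Over all 37284 shared regions limma called 0 (0%) at an adjusted p under 0.05, and 1746 (4.68%) had an unadjusted p under 0.05. The 2 member regions whose scores did not overlap between groups were the NEUROD1 start, lower in silenced libraries, and the lower-coordinate end of POU2F3, higher in silenced libraries, where 4.78% and 5.39% of all shared regions did not overlap in these directions. At 5 of the 16 regions all 6 libraries had scores below 0, the REST start and the lower-coordinate end of POU2F3 among them.

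**Figure D4:**
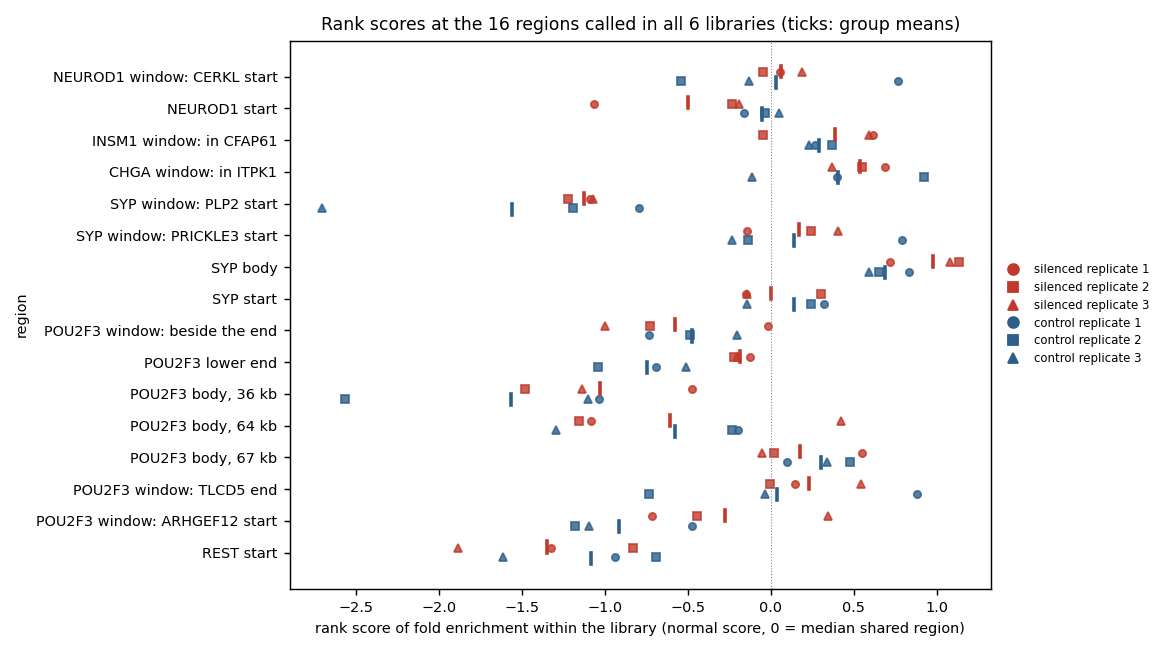
Rank score of fold enrichment within each library at the 16 member regions called in all 6 libraries, where 0 is the median of 37284 shared regions. Points are libraries and vertical ticks group means. The silenced scores lie left of the control scores at the NEUROD1 start and right of them at the lower-coordinate end of POU2F3, and overlap at the other 14 regions.

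Set among other genes, the open starts and ends of the members were weak. A peak within 1 kb of a start (or, where RefSeq gave no start, of an end) was called in all 6 libraries at 4 of the 6 members, against 58.9% of protein-coding genes. INSM1 had it in 2 libraries and CHGA in none. Among the 11695 protein-coding genes with such a shared region, the mean score of REST exceeded that of 2.30%, POU2F3 11.4%, NEUROD1 15.5% and SYP 25.1%. The median height at the members called in all 6 libraries ran from 8 at REST to 15 at SYP and POU2F3, where the median over all such genes was 38. The genes with the most similar scores over the 6 libraries were IQSEC2 and SUSD2 for NEUROD1 (mean absolute differences of 0.101 and 0.103), NAV2 and ACTR8 for SYP (0.0997 and 0.102), APOL6 and RAD51AP2 for POU2F3 (0.135 and 0.139), and CYP26A1 and CNTNAP2 for REST (0.181 and 0.215). These near matches describe the scores only.

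The wider lists of each lineage placed the members among their partners. Over all protein-coding genes, 58.9% had a peak at a start or end in all 6 libraries and 19.1% in none. The neuroendocrine, granule and tuft lists below fell short of that 58.9%, and the REST list exceeded it. Of 22 neuroendocrine transcription and splicing regulators, 9 (40.9%) had a peak at a start or end in all 6 libraries, led by the homeobox and POU genes POU3F2, LHX2, ISL1 and NKX2-1 with median heights of 72.5, 71, 40.5 and 31. NKX2-1 and SOX2, another of the 9, were also counted above as an alveolar and a squamous marker. NEUROD2 and ST18 were called in none. Of 26 granule, vesicle and neuronal genes, 12 (46.2%) were called in all 6, led by SYT1, UCHL1, VGF and CPE with median heights of 47.5, 46, 46 and 39. CHGB, the sister granin of CHGA, was among the 12, with a median height of 20.5, and CHGA, CALCA and ELAVL3 were called in none. SOX2 and CHGB, and POU2AF3 and REST below, were named after their values had been seen.

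Of 21 tuft genes, 7 (33.3%) were called in all 6 libraries, against 58.9% of all protein-coding genes. GFI1B, SOX9, POU2F3 and KIT were the tallest of the 7, with median heights of 24.5, 18, 15 and 11. POU2AF2, a co-activator of POU2F3, AVIL, PTGS1 and GNAT3 were among the 5 tuft genes called in none, and the other co-activator gene POU2AF3 was called in all 6 at heights of 3 to 11. Of 20 genes for REST and its partners, 16 (80%) were called in all 6 libraries, with SIN3A, BTRC and CTDSP1 at median heights of 151.5, 105 and 46. SIN3A is a co-repressor scaffold, BTRC the ubiquitin ligase subunit that marks REST for degradation, and CTDSP1 a phosphatase that stabilizes REST. REST itself, at a median height of 8, was the lowest of these 16. In none of the 4 lists was a gene called in all 3 libraries of a single group and in no library of the other. The matching share of all protein-coding genes is not given here, so that absence is a description of the lists only. Start sites come from an incomplete table, and when either end of the span also counted, 10, 14, 7 and 18 genes of the 4 lists were called in all 6 libraries. The share of all protein-coding genes under that wider rule is not given here, and the 58.9% does not apply to it.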

How the data were processed

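ATAC-seq peak lists of 6 NCI-H1703 libraries (3 silenced, 3 control) were used. Per the labels' protocols, 10000 to 50000 cells were used for transposition, with paired reads of 150 bases. The submitters' processing notes name Trimmomatic 0.36, Bowtie2 2.2.6, Picard 2.8.2, MACS2 2.1.1 and bedtools 2.25.0 and the build GRCh38, without roles or settings. A shift of read ends for the transposase is not given in the sources used here. Per the file headers, the authors deposited for each peak a fold enrichment (ratio), a p-value, an FDR (adjusted p-value) and a pileup signal. Peaks were listed per library, every deposited p-value was at most 0.00987, and no interval was shorter than 200 bp.

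Autosomal, X and Y peaks were joined to RefSeq spans of GRCh38.p14 by symbol, and all 6 members matched. Lists were merged at an overlap of 1 bp. Background coverage is the smallest (height + 1) / fold − 1 of a list. Peaks per window were compared by a two-sided exact permutation test of mean counts, gene by gene. Rank scores were tested across all shared regions with limma 3.58.1 (R 4.3.3) with a mean-dependent prior and Benjamini-Hochberg adjustment at 0.05. The procedure was also run on simulated scores with added shifts. The outcome of that run is not reported here, so the size of difference the test could detect is not given. Start sites and promoter sequences came from a RefSeq promoter table. The named regions are those called in all 6 libraries or in all of a single group, and otherwise the most often called. Members and lists were chosen with earlier results of these data known. Alternatives covered the FDR, height and list length, the window, the overlap, the ranked value, each left-out library and the replicate number as a block. Some genes of the lists are counted but not reported by name here.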

Additional observations from a re-analysis of the deposited data

How the results depend on the processing

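No tested result passed its threshold under the alternatives run, so only directions and counts could change, and the cause of each change was not tested. The replicate block left each difference in peaks as it was (SYP −2, exact sign-flip p = 0.25) and 0 shared regions past the threshold, and same-numbered libraries did not deviate together (correlations of −0.00196, 0.00238 and −0.00829 for the 3 pairs), so the numbers are no sign of pairing. The SYP difference in peaks (silenced minus control) became 0.333 under the FDR limit (peaks at or below 1e-05). It was −1.67 at a height of at least 4 and −1.33 with equal list sizes. That of CHGA, −0.333, became −1.67 at a height of at least 4 and −2 with equal list sizes. That of POU2F3, 0.333, became −1 under it, −0.333 at a height of at least 4, −1.67 with equal list sizes and −0.667 on the gene span alone, and that of REST, −0.333, became 0.333 with equal list sizes. Leaving out a library gave −0.667 to 1 for INSM1 (reversed without silenced replicate 2), −1.17 to 0.833 for CHGA (without silenced replicate 2), −0.5 to 1 for POU2F3 (without silenced replicate 3), −2 to 0.5 for REST (without silenced replicates 1 or 3 and control replicates 1 or 3), −2.83 to −1.33 for SYP and −0.333 to 0.333 for NEUROD1. The FDR limit took control-only regions from 1 to 0, and leaving out a library gave 1 to 3 control-only and 0 to 2 silenced-only regions. Within 2 kb, genes called in all 6 libraries went from 9 to 14 of the neuroendocrine regulators and from 12 to 16 of the granule genes. Under the FDR limit they went from 7 to 3 of the tuft genes and from 4 to 2 of the members. The share of all protein-coding genes under either setting is not given here, so these counts have no matching background. Counts without silenced replicate 3 or without control replicate 2, chosen after seeing the data like the count over either gene end, were 9 to 11 regulators, 12 to 14 granule genes, 7 to 9 tuft genes, 16 to 17 REST partners and 4 members. The score difference at the CERKL start became −0.00908 under the FDR limit. Score differences that changed sign when a library was left out ran from −0.254 to 0.399 at the CERKL start, −0.0145 to 0.316 at the CFAP61 region, −0.124 to 0.396 at the ITPK1 region, −0.136 to 0.821 at the PLP2 start, −0.160 to 0.353 at the PRICKLE3 start, −0.389 to 0.104 beside the end of POU2F3, −0.544 to 0.245 and −0.194 to 0.613 at the POU2F3 body region of 63515 bp and the TLCD5 end, and −0.530 to 0.00447 at the REST start. The NEUROD1 start (−0.599 to −0.163) and the end of POU2F3 (0.418 to 0.685) kept their signs. The read depth is unknown, and peaks of height 2 or 3 are at the limit of what these lists hold.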
